A study of Mus musculus with 5 samples.

Results

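The acute-phase protein genes described here are 10 genes, Saa1, Saa2, Saa3, Saa4, Lcn2, Orm1, Orm2, Orm3, Hp and Apcs, among the 32285 genes of the deposited count table. They were chosen by gene symbol, and the choice was made on measured values of these libraries, since Saa2, Saa3 and Lcn2 peak at 16 h of fasting. Their levels at 16 h against the other libraries are therefore a description, and no test is given on them. All 10 symbols were found in the table.

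Liver cells of male C57BL/6J mice (wild type, normal chow), isolated as hepatocytes, were sequenced as single cells in droplets with 10x Genomics 3' chemistry. Every animal had been trained for 3 days to fast for 16 h overnight and to eat for 8 h by day, and had chow and 20% sucrose water on the day of sampling. The fed library (0 h) was taken after 4 h of feeding, and 4 further libraries came from mice without food or sucrose water for 4, 8, 16 and 24 h. Mice were killed at clock hours 13, 17, 21, 5 and 13. Hour of day and length of the fast therefore cannot be told apart, except between 24 h and fed. Each time had 1 library and no replicate, which leaves nothing to test across animals, and how many animals a library holds is not stated in the labels. Differences therefore describe these 5 libraries, and all intervals are 95% intervals that cover counting error only.

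Acute-phase proteins are plasma proteins whose output from the liver changes when the body senses infection, injury or another stress. Cytokines of the interleukin-6 and interleukin-1 families, acting through STAT3, NF-kB and C/EBP factors and together with glucocorticoids, switch on their genes in hepatocytes. Serum amyloid A1 and A2 are the classical strongly inducible members and travel on high-density lipoprotein, and serum amyloid A4 is the constitutive form. Haptoglobin and orosomucoids are abundant in plasma in the resting state as well, and serum amyloid P, encoded by Apcs, is a major acute-phase protein of the mouse.

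Hepatocytes were barcodes with at least 1000 unique molecular identifiers (UMIs, counts of single transcripts), at least 500 genes, 2 to 30% mitochondrial UMIs and little RNA of other cell types. They numbered 7702, 4561, 2705, 9079 and 4559 in time order. The limits on UMIs, genes and the upper mitochondrial share left 3292 of 10000 barcodes at 8 h and 9359 to 9998 in the other libraries. The lower mitochondrial limit removed much of 2 libraries, from 9912 to 4567 barcodes at 4 h and from 9976 to 4576 at 24 h, and what those barcodes are was not tested. Summed nuclear-encoded UMIs ranged from 33464390 to 45506263 per library, and median UMIs per cell from 4406 at 16 h to 15055 at 8 h. Hepatocyte markers were high in every library, at 86269 to 115694 CPM (UMIs per 1000000 nuclear-encoded UMIs) summed over 7 genes. The 8 neutrophil markers summed to between 0.132 and 0.906 CPM, with Ly6g, Camp, Ngp and Retnlg at 0 throughout, and the 10 macrophage markers to between 0.0592 and 11.3 CPM, highest in the fed library. The endothelial markers summed to 44.1 CPM in the fed library and to between 5.58 and 12.6 CPM in the others. Between libraries, 258 barcode sequences occurred in 2 libraries and 1 in 3.

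Saa1 and Saa2 made up by far the widest swing among the 10 genes. Saa1 (ENSMUSG00000074115, GRCm38 chromosome 7, 46740497 to 46742980, minus strand) stood at 385 CPM in the fed library (378 to 391). The fasted libraries gave, in time order, 1148 CPM (1139 to 1158), 37.9 CPM, 4887 CPM (4864 to 4911) and 21.1 CPM (19.7 to 22.7). Saa1 was thus high at 4 h and 16 h, low at 8 h and 24 h, and no 2 of the 5 intervals overlapped. Against fed it was 2.99-fold higher at 4 h, 10.1-fold lower at 8 h, 12.7-fold higher at 16 h and 18.2-fold lower at 24 h. Saa2 (ENSMUSG00000057465, chromosome 7, 46751790 to 46754313, plus strand), its close neighbour, stood at 218, 1086, 12.8, 4953 and 9.67 CPM in time order from fed to 24 h. That is the same order of libraries with a wider range, from 22.6-fold below fed at 24 h to 22.7-fold above it at 16 h.

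The 2 transcripts are hard to tell apart by their 3' ends, the part that this chemistry reads: the last 300 bases of their longest annotated transcripts were 92.4% identical. Of the UMIs assigned to either gene, Saa2 took 36.2% in the fed library (35.6% to 36.8%). In the fasted libraries it took, in time order, 48.6% (48.3% to 48.9%), 25.3% (23.3% to 27.4%), 50.3% (50.2% to 50.5%) and 31.4% (28.7% to 34.2%). The Saa2 share was thus nearest to an even split in the libraries where both genes were high. How far the counting of shared reads sets this share was not tested. Summing both genes left the log2 ratio to fed at 1.89 at 4 h and 4.03 at 16 h.

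Saa3 (ENSMUSG00000040026, chromosome 7, 46711998 to 46715700, minus strand) encodes an inducible form made in the liver and in other tissues. It stood at 6.55, 5.96, 4.29, 238 and 3.62 CPM in time order, so that the 16 h library was high and the other 4 lay close together near the bottom of the range. Saa4 (ENSMUSG00000040017, chromosome 7, 46727998 to 46732603, minus strand) lies between Saa3 and Saa1 on the chromosome. It stood at 436, 432 and 422 CPM at 0, 4 and 8 h, and at 140 CPM at 16 h and 190 CPM at 24 h. The constitutive form was thus lowest where the inducible forms were highest, at a log2 ratio to fed of -1.64 (-1.68 to -1.59).

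The sequence upstream of the 4 Saa genes is shown because genes within 1 cluster of chromosome 7 differed in their order of libraries, and that of the neighbours Orm2 and Orm3 because both held the same motif. The windows are RefSeq's for GRCm38.p6, read 5′ to 3′ on the strand of the gene, and run over the 250 bases before the start, cut where they reach an annotated exon. They are chr7:46742981-46743230 (minus strand), chr7:46751583-46751789 (plus strand, 207 bases), chr7:46715701-46715926 (minus strand, 226 bases), chr7:46732604-46732853 (minus strand), chr4:63362199-63362448 (plus strand) and chr4:63355908-63356157 (plus strand). Capitals mark matches to TTGCNNAA, the C/EBP motif, on either strand, and to TATAAA, the TATA box, on the strand of the gene.
Saa1: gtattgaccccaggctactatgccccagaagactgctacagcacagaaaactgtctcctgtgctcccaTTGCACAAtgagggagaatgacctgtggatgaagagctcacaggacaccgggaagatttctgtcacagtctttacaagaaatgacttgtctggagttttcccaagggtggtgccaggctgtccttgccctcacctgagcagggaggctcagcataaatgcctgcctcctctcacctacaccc
Saa2: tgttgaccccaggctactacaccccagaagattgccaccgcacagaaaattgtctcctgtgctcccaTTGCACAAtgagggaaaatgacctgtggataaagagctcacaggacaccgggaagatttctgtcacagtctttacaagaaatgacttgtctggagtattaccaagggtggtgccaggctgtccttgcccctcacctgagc
Saa3: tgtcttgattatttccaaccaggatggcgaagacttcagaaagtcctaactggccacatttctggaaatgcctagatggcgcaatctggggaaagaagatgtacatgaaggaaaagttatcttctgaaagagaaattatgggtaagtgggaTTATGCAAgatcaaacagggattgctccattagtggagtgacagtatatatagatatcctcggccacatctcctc
Saa4: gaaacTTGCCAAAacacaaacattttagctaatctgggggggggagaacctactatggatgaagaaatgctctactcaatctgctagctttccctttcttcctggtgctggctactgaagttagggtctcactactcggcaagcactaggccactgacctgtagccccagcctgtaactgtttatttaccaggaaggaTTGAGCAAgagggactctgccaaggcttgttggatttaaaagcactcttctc
Orm2: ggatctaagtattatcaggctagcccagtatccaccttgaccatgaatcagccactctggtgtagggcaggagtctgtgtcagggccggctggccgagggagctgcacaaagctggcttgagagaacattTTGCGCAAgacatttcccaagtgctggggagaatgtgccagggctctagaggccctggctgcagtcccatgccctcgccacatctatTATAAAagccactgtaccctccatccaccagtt
Orm3: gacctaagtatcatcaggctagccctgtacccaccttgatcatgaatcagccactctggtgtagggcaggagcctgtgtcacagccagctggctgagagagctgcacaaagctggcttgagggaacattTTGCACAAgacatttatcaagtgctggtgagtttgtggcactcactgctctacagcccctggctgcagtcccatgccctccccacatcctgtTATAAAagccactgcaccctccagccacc
The full windows of Saa1 and Saa2 were identical at 238 of 251 aligned positions (94.8%), those of Saa1 and Saa3 at 52.2% and those of Saa1 and Saa4 at 49.5%. The C/EBP motif occurred at -182 to -175 in Saa1, -183 to -176 in Saa2, -99 to -92 in Saa3, at 2 positions in Saa4, at -120 to -113 in Orm2 and at -121 to -114 in Orm3, counted back from the start. Of 32851 such windows, 9.56% held it. Apcs held none in this window, while a match in the Lcn2 window, at -216 to -209, lies in an annotated exon. The STAT motif TTCNNNGAA, searched on both strands and found in 7.02% of windows, matched at -244 to -236 in Apcs alone among the 8 members with an entry, and the NF-kB consensus, found in 7.25% of windows, matched in none of them. The TATA box, found in 7.59% of windows, occurred in Orm2 and Orm3. No match overlapped one to another motif, and a match is a description of letters, not a binding site. Orm1 and Hp were matched to no entry.

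Lcn2 and Apcs followed Saa1 and Saa2 at 16 h. Lcn2 (ENSMUSG00000026822, chromosome 2, 32384633 to 32388252, minus strand) encodes lipocalin 2, which binds bacterial iron carriers, and is also a neutrophil granule gene. Its levels in time order were 10.8, 45.9, 7.07, 287 and 16.0 CPM. Like Saa1 and Saa2 it was second highest at 4 h, 4.25-fold above fed, although both levels lay under 50 CPM. The neutrophil markers summed to 0.538 CPM at 16 h and 0.906 CPM in the fed library. Among them the granule genes S100a8 and S100a9 had 6 and 4 UMIs at 16 h and 2 and 2 fed, while Cxcr2 had 8 and 26, beside 9609 and 405 UMIs of Lcn2.

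Apcs (ENSMUSG00000026542, chromosome 1, 172893961 to 172895041, minus strand) stood at 51.9, 51.5, 22.7, 310 and 27.9 CPM in time order. It was 5.98-fold above fed at 16 h and, unlike Saa1 and Saa2, did not differ from fed beyond counting error at 4 h (log2 ratio -0.010, -0.098 to 0.077).

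Hp and Orm1 kept within a narrow band, as the plot of levels by fasting time shows. Hp (ENSMUSG00000031722, chromosome 8, 109575128 to 109579172, minus strand) encodes haptoglobin, which binds free haemoglobin, and stood at 2188, 2381, 1554, 2335 and 2213 CPM in time order. Orm1 (ENSMUSG00000039196, chromosome 4, 63344560 to 63348163, plus strand) encodes orosomucoid 1, a carrier of small molecules in plasma, and stood at 1424, 1341, 813, 1528 and 836 CPM. Neither passed a 2-fold difference from fed in any library, and both were lowest at 8 h. Orm2 (ENSMUSG00000061540, chromosome 4, 63362449 to 63365878, plus strand) stood at 74.9, 54.1, 13.1, 121 and 21.7 CPM, a wider swing than Orm1, with 8 h 5.71-fold below fed. Orm3 (ENSMUSG00000028359, chromosome 4, 63356162 to 63359511, plus strand) stayed between 1.39 and 9.83 CPM. Orm1 and Orm2 shared 97.7% of the last 300 transcript bases, so that reads of Orm1 could enter Orm2. The Orm2 share of their UMIs was 5.00%, 3.87%, 1.59%, 7.35% and 2.53% in time order, so that it was not a fixed fraction of Orm1.

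**Figure D1:**
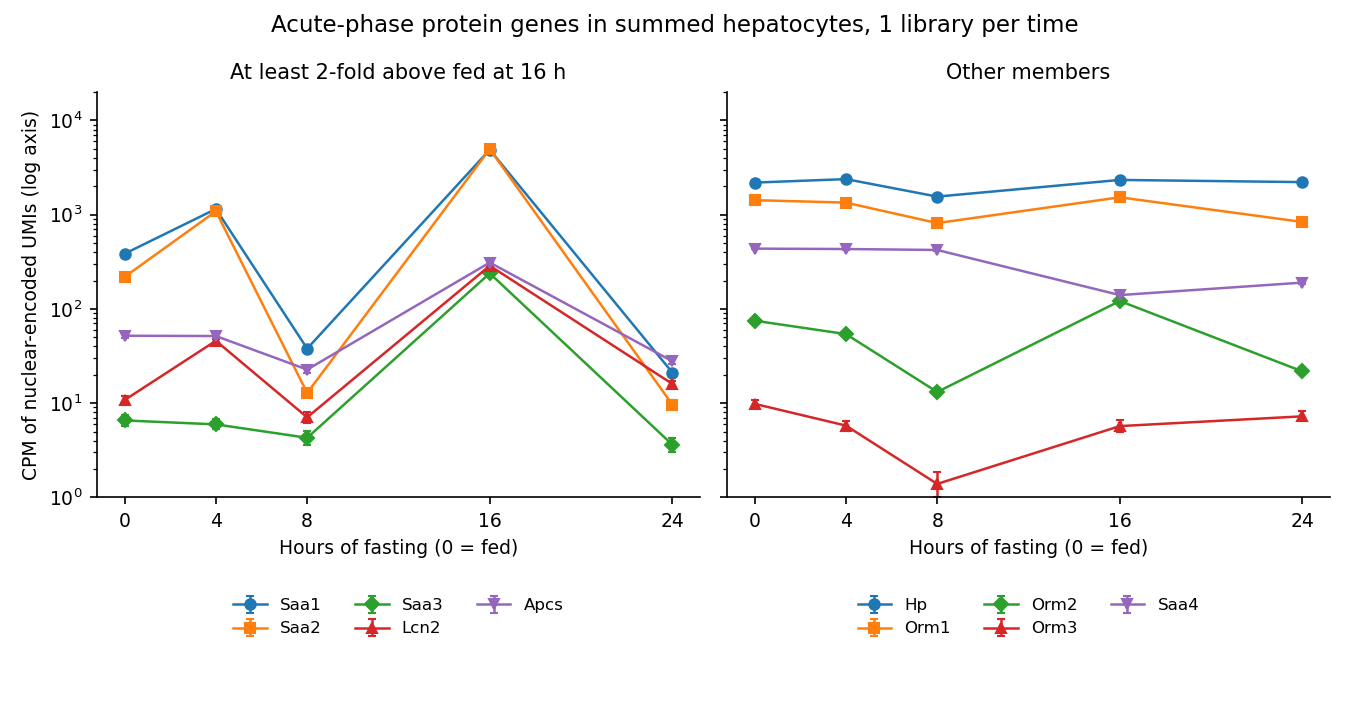
Level of each gene in summed hepatocytes (CPM of nuclear-encoded UMIs, log axis) against hours of fasting, with 1 library per point and bars for the exact Poisson interval, mostly smaller than the symbols. The left panel holds the 5 genes at least 2-fold above fed at 16 h, which drop again at 24 h (Saa2 from 4953 to 9.67 CPM), and the right panel the other 5.

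A gene was counted as higher or lower when it differed at least 2-fold and reached 50 CPM in either library. At 4 h, 2 of the 7 members with that level were higher than fed (Saa1, Saa2) and 0 lower, beside 5.81% of all genes higher and 5.91% lower. At 8 h, 0 of 7 were higher and 4 lower (Saa1, Saa2, Orm2, Apcs), beside 8.03% higher and 11.7% lower. At 16 h, 5 of 9 were higher (Saa1, Saa2, Saa3, Lcn2, Apcs) and Saa4 was lower, beside 3.35% and 4.08%, and nothing is read from this share because the genes were chosen on it. At 24 h, 0 of 7 were higher and 4 lower (Saa1, Saa2, Saa4, Orm2), beside 6.72% and 10.6%. The median log2 ratio of the members with that level was -0.010, -1.19, 2.58 and -1.20 in time order, beside medians between -0.038 and 0.0049 over all genes. Members counted at a time had passed the minimum in part because they were high in 1 of the libraries.

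Each library was also set beside the one before it. Of 7 members, 4 were lower at 8 h than at 4 h (Saa1, Saa2, Orm2, Apcs) and 0 higher, beside 2.22% of all genes lower and 1.14% higher. Of 9 members, 6 were higher at 16 h than at 8 h (Saa1, Saa2, Saa3, Lcn2, Orm2, Apcs) and Saa4 was lower, beside 11.3% and 9.74%. At 24 h Saa1, Saa2, Saa3, Lcn2, Orm2 and Apcs, 6 of 9, were lower than at 16 h and 0 of 9 were higher, beside 6.96% lower and 7.49% higher. Saa2 differed 386-fold between 8 and 16 h and 512-fold between 16 and 24 h. The comparisons share libraries, so that the high 16 h library enters its comparisons with 8 h, with 24 h and with fed. Saa1, Saa2, Saa3, Lcn2, Orm2 and Apcs reached 50 CPM at 16 h but not at 8 or 24 h, and genes were chosen on their 16 h level. Nothing is therefore read from the counts at these steps. The 4 members lower at 8 h than at 4 h likewise reached 50 CPM only in the 4 h library of that pair.

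A fixed list held 17 other positive acute-phase genes, and its counts stand beside the shares of all genes given above. At 16 h, 2 of the 15 with 50 CPM were at least 2-fold above fed: Fgb, a fibrinogen chain (3127 to 6916 CPM), and Fgl1, a fibrinogen-like hepatokine (174 to 673 CPM). The other fibrinogen chains lay just inside the threshold, Fga at 3881 and 7264 CPM and Fgg at 2950 and 5386 CPM. Steap4, a metalloreductase gene, was lower than fed in all 4 fasted libraries (213 CPM fed, 42.5 to 88.9 CPM fasted). At 4, 8 and 24 h, 0, 1 and 0 of 15 were higher and 1, 2 and 3 lower, among them Lbp (higher at 8 h, at 140 against 67.0 CPM), Fgl1 (lower at 8 h), and Fga and Crp (lower at 24 h, Crp at 321 against 703 CPM). Cp, the ceruloplasmin gene, stood at 1273 CPM fed and 2097 CPM at 16 h. C3, a complement gene, stood between 2847 and 4399 CPM, and Hamp, which encodes the iron hormone hepcidin, between 492 and 768 CPM. Negative acute-phase genes are those whose output falls in an acute-phase response, and 0 of 8 passed 2-fold against fed in any fasted library. Alb, the albumin gene, stood at 76852 CPM fed and 82873 CPM at 16 h, and Ttr, the transthyretin gene, at 6783 and 6463 CPM. Rbp4, which encodes the retinol carrier of plasma, ranged from 3755 CPM at 16 h to 8596 CPM at 24 h. Trf, the transferrin gene, ranged from 10442 to 13164 CPM, Apoa1 from 4095 to 7396 CPM, Ahsg from 4352 to 4931 CPM and Serpina6 from 72.2 to 126 CPM.

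Receptor genes of the signalling route had another order of libraries than Saa1 and Saa2. Among 7 receptor genes, Il6ra, the interleukin-6 receptor subunit, had levels of 40.9, 135, 138, 68.9 and 115 CPM from fed to 24 h, and Il1r1, an interleukin-1 receptor, was above 2-fold at 8 h (68.3 against 28.7 CPM). At 4, 8, 16 and 24 h, 1 of 6, 2 of 6, 0 of 5 and 1 of 5 with 50 CPM were higher and 0 lower, beside 5.81%, 8.03%, 3.35% and 6.72% of all genes higher. Of the others with 50 CPM, Il6st stood between 47.7 and 68.2 CPM, Il1rap between 166 and 219 CPM, Tnfrsf1a between 39.8 and 56.9 CPM and Nr3c1, the glucocorticoid receptor, between 89.7 and 151 CPM. Osmr, the oncostatin M receptor, was near the limit of detection, with 17 UMIs in the fed library and 0 to 3 in each fasted library. Of 9 transducers and transcription factors, 4 had 50 CPM and 0 of these passed 2-fold at any time, with Jak1 between 60.8 and 84.4 CPM, Stat3 between 77.7 and 111 CPM, Cebpa between 223 and 308 CPM and Cebpb between 476 and 523 CPM.

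Among 8 inducible feedback and target genes, Cxcl1, a chemokine gene, and Bcl3, an NF-kB regulator, were lower than fed in all 4 fasted libraries (Cxcl1 134 CPM fed and 0.533 to 16.0 CPM fasted, Bcl3 65.0 and 10.5 to 19.7 CPM). Socs3, the feedback inhibitor of interleukin-6 signalling, stood at 31.4, 7.67, 1.92, 12.6 and 2.19 CPM, under the 50 CPM minimum throughout. Within the fasted libraries its highest level was also at 16 h. Of the 4, 5, 4 and 5 genes with 50 CPM at 4, 8, 16 and 24 h, 1, 2, 1 and 2 were higher (5.81%, 8.03%, 3.35% and 6.72% of all genes). In the same order 2, 3, 2 and 3 were lower (5.91%, 11.7%, 4.08% and 10.6% of all genes). They include Pim3 and Nfkbia among the higher genes (Pim3 107 against 37.4 CPM at 8 h, Nfkbia 55.3 against 24.3 CPM at 16 h) and Junb among the lower (14.6 against 68.9 CPM at 8 h).

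Of 6 glucocorticoid-responsive genes, 3 of 4, 4 of 4, 2 of 3 and 3 of 4 with 50 CPM were higher than fed at 4, 8, 16 and 24 h and 0 lower, beside 5.81%, 8.03%, 3.35% and 6.72% of all genes higher. The metallothionein gene Mt1 stood at 109, 5310, 6152, 1452 and 1639 CPM and Mt2 at 26.6, 1840, 1717, 506 and 405 CPM. Fkbp5, a co-chaperone of the glucocorticoid receptor, stood at 22.0, 134, 288, 37.7 and 122 CPM, and Tsc22d3 was above 2-fold at 8 h (346 against 168 CPM). These 4 genes were thus highest at 4 h or 8 h. The other 2 of the list lay under 50 CPM: Per1 was highest at 8 h (28.3 against 9.62 CPM fed), and Sgk1 at 16 h (34.4 against 11.5 CPM fed).

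At the level of single cells, the 16 h library stood apart from the other 4. Saa1 and Saa2 were summed per cell and given per 10000 nuclear-encoded UMIs. At 16 h the cells fell into a lower range under 20 (3801 cells, 41.9%, 40.8% to 42.9%) and an upper range of 60 or more (4949 cells, 54.5%, 53.5% to 55.5%), with 329 cells (3.62%) between them. The median was 4.37 in the lower and 160 in the upper range. The limits 20 and 60 were set after the cells had been seen, and they cut a range rather than define a cell type. In the fed library 38 of 7702 cells (0.493%) reached 60, at 4 h 371 of 4561 (8.13%), at 8 h 2 of 2705 (0.0739%) and at 24 h 3 of 4559 (0.0658%). The 4 h cells formed a single hump instead, with 38.8% of cells between 20 and 60. The 371 cells in the upper range at 4 h were shallow, with a median of 2367 nuclear-encoded UMIs against 10735 in the lower range, and the part of depth in them was not tested. Animals and cells within an animal cannot be told apart as the source of the 2 ranges at 16 h.

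**Figure D2:**
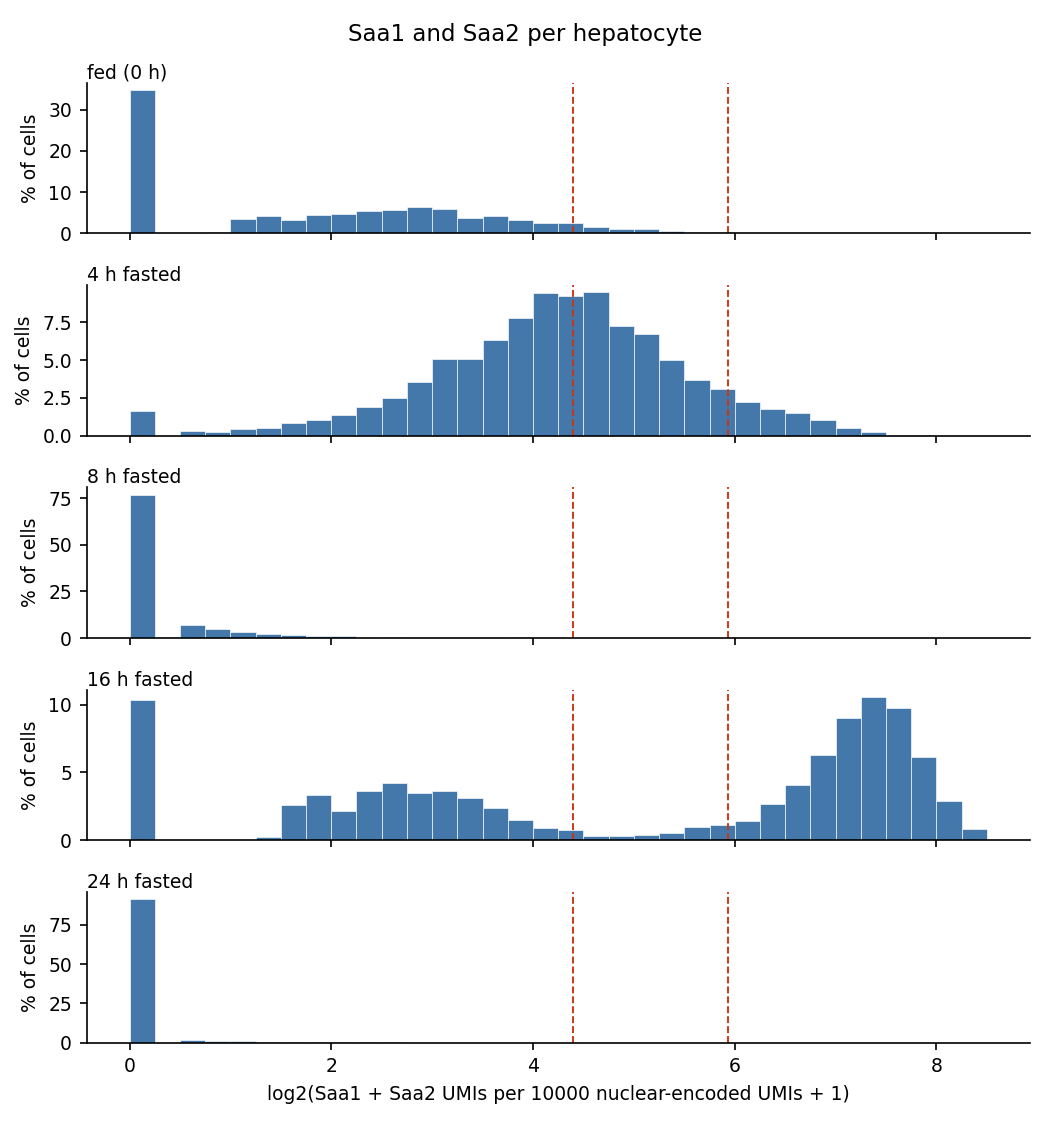
Share of hepatocytes (percent of cells, 1 panel per library with its own axis from 0) by Saa1 plus Saa2 UMIs per 10000 nuclear-encoded UMIs, on a log2(value + 1) axis. Dashed lines mark 20 and 60, and at 16 h 3.62% of cells lie between them, against 38.8% at 4 h.

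The upper range was not spread evenly over cell quality. It held 73.1% of the cells with 2 to 15% mitochondrial UMIs (71.9% to 74.2%) and 22.3% of those above 15% (20.9% to 23.8%). With the cells cut into 3 equal groups by nuclear-encoded UMIs, it held 49.0%, 43.7% and 70.8% of the lowest, middle and highest group. Median mitochondrial shares were 12.3% in the upper and 16.1% in the lower range, with 4128 and 3588 nuclear-encoded UMIs per cell. The part of these differences in the ranges was not tested.

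Other members followed the Saa1 and Saa2 ranges, although they had no part in the limits. Lcn2 stood at 472 CPM in the upper and 17.8 CPM in the lower range, 26.6-fold apart, and Saa3 at 392 and 15.8 CPM, 24.7-fold apart. Orm2 stood at 187 and 26.9 CPM, Apcs at 467 and 83.8 CPM, Orm1 at 2083 and 717 CPM, and Hp at 3116 and 1206 CPM. Orm1 and Hp, level with fed in the library as a whole, were therefore above fed in the upper range and below it in the lower range (log2 ratio of lower range to fed -0.99 for Orm1 and -0.86 for Hp). Saa4 differed little between the ranges, at 162 and 109 CPM, and both lay under its fed level of 436 CPM. Of the 7 members besides Saa1 and Saa2 with 50 CPM, 6 were at least 2-fold higher in the upper range and 0 lower, beside 1.38% of all genes higher and 0.565% lower. Saa3, Lcn2 and Orm2 reached 50 CPM only in the upper range, so that they had to differ to be counted, and the count adds nothing to their values.

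**Figure D3:**
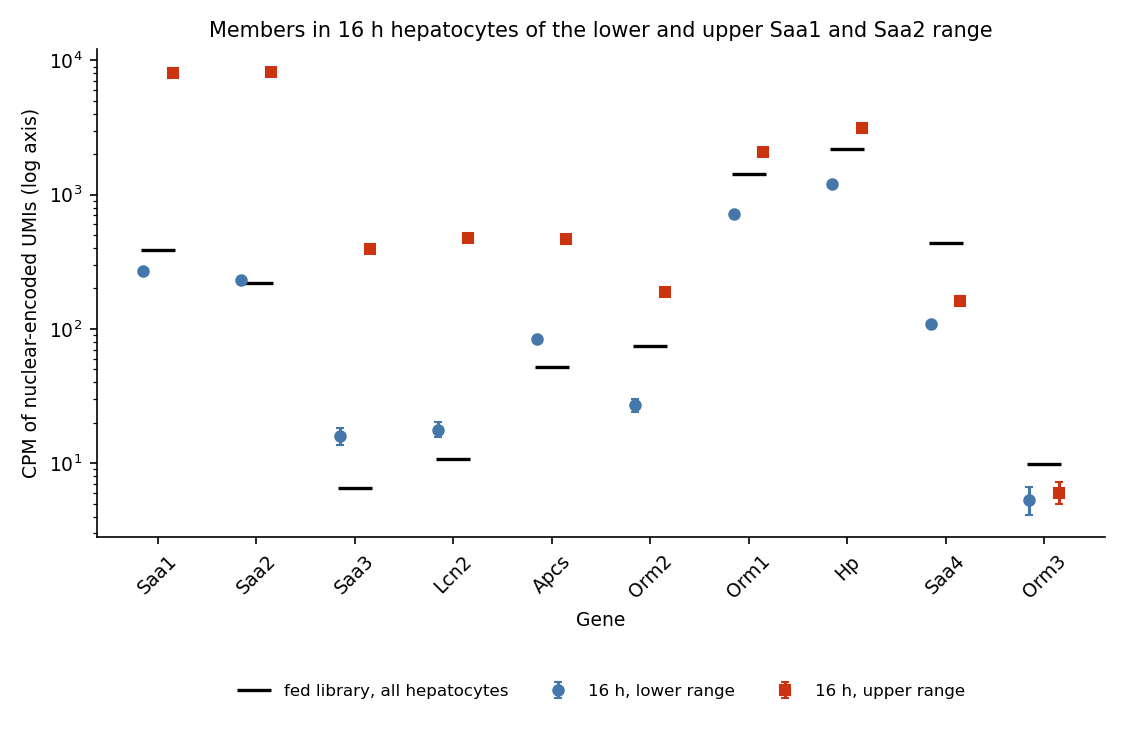
Level of each gene (CPM, log axis) in the 16 h hepatocytes of the lower and upper range of Saa1 plus Saa2, with exact Poisson intervals, beside the fed library (black dashes). Orm1 is at 717 and 2083 CPM on either side of its fed level of 1424 CPM, while Saa4 is below fed in both ranges.

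Among the 17 other positive acute-phase genes, 5 of 15 were higher in the upper range and 0 lower, again beside 1.38% and 0.565% of all genes: Fgl1 (977 against 234 CPM), Serpina3n (575 against 182), Hpx (4635 against 1750), Itih3 (800 against 365) and Itih4 (2148 against 1014). The fibrinogen chains, by contrast, differed between 1.41-fold and 1.51-fold, and even in the lower range Fgb stood at 5541 CPM beside 3127 CPM fed. Crp, at 900 and 886 CPM, did not differ between the ranges beyond counting error. Of the 6 glucocorticoid-responsive genes, Mt1 and Mt2 were 4.15-fold and 6.18-fold higher in the upper range. Tsc22d3 stood at 117 CPM in the upper and 216 CPM in the lower range, Sgk1 at 26.2 and 46.7 CPM, Per1 at 11.6 and 12.8 CPM and Fkbp5 at 43.5 and 29.2 CPM.

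The lower-range levels are given beside those in barcodes of another cell type. Barcodes rich in endothelial markers held 612 CPM of Saa1 and 1186 CPM of Saa2 at 16 h (33 and 64 UMIs in 45 barcodes), above the 269 and 229 CPM of the lower range and far under the 8100 and 8241 CPM of the upper range. Saa1 and Saa2 in lower-range cells are therefore not read as expression by those cells. Whether the RNA in either kind of barcode was free RNA, a doublet's or the cell's own was not tested. Saa3 and Lcn2 in the same barcodes rested on 4 and 3 UMIs (74.1 and 55.6 CPM), also above the lower range. The lower-range levels of Saa3 and Lcn2 are not read as expression either, and their folds between the ranges rest on these levels. Orm1 at 259 CPM and Hp at 185 CPM were well under their lower-range levels. After thinning each cell to 1000 nuclear-encoded UMIs, 65.8% of 8961 hepatocytes at 16 h held a Saa2 UMI (79.3% unthinned), beside 68.3% of 41 endothelial-rich barcodes (51.9% to 81.9%). Before shallower ones were left out, the median depth was 1173 nuclear-encoded UMIs in the 45 endothelial-rich barcodes and 3765 in the 9079 hepatocytes. The share of cells with a Saa2 UMI is thus no higher than in barcodes of another type and is not read as expression. For Saa1 the shares were 66.6% and 41.5% (26.3% to 57.9%). For Lcn2 the shares were 20.8% and 4.88% (0.596% to 16.5%), for Apcs 24.3% and 2.44% (0.0617% to 12.9%), and for Orm1 70.5% and 22.0% (10.6% to 37.6%).

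A few cells carried a large part of the Saa1 and Saa2 UMIs at 8 and 24 h. With 10 or more Saa1 and Saa2 UMIs per 10000, 29 of 2705 cells at 8 h (1.07%, 0.719% to 1.54%) held 43.0% of these UMIs, and 31 of 4559 at 24 h (0.680%, 0.462% to 0.964%) held 47.9%. Of these cells, 0 shared a barcode sequence with the 16 h library. Saa3, which had no part in the limit, stood at 182 CPM in the 29 cells and 2.72 CPM in the rest (54 UMIs in the 29 cells). Lcn2 at 8 h stood at 67.5 and 6.54 CPM (20 UMIs in the 29 cells), and Apcs at 33.7 and 22.6 CPM, a much smaller difference. At 24 h Lcn2 stood at 198 CPM in the 31 cells and 14.9 CPM in the rest (47 UMIs). Saa3 stood there at 92.6 and 3.06 CPM (22 UMIs in the 31 cells) and Apcs at 88.4 and 27.5 CPM. The fed library differed from both, since 18.5% of its cells passed the same limit and held 63.3% of the UMIs.

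The spread between cells beyond counting noise was measured as the excess CV2, the variance minus the mean over the squared mean of thinned counts, for genes of 200 CPM or more. For Saa1 it was 1.46 fed, 0.856 at 4 h and 0.868 at 16 h, and for Saa2 6.15, 0.903 and 0.926, beside medians of 0.172, 0.197 and 0.0928 over all genes of 50 CPM. Among these 3 libraries Saa2 was most uneven in the fed one, where the top 1% of cells held 18.4% of its UMIs. At 8 and 24 h, where Saa2 lay under 200 CPM, the top 1% of cells held 84.1% and 84.0%. At 16 h Saa3 reached 2.96 and Lcn2 1.39. Hp stayed between 0.190 and 0.457 and Orm1 between 0.121 and 0.433 over the 5 libraries. Their highest values were those at 16 h, above 92.9% and 91.7% of all genes of 50 CPM in that library. Saa4 reached 0.426 at most in the fed, 4 h and 8 h libraries.

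Co-expression over cells was measured as Pearson's r of log-scaled counts within a library, as a description, because the cells share a library and depth. The median over the 45 pairs was 0.066, 0.070, 0.042, 0.319 and 0.056 in time order, beside 0.037, 0.086, 0.044, 0.020 and 0.070 over all pairs of genes with 50 CPM. The background holds only genes with 50 CPM, while many members lay under it. Over the pairs of members with 50 CPM the median was 0.116 fed (21 pairs), 0.112 at 4 h (21 pairs), 0.092 at 8 h (3 pairs), 0.366 at 16 h (36 pairs) and 0.077 at 24 h (3 pairs). The members in these medians differ between libraries, since Saa3 and Lcn2 reached 50 CPM at 16 h alone, so that the medians are not ranked across libraries. Of the 45 pairs, 2, 6, 2, 25 and 2 reached 0.3 in time order. The top 1% of all pairs of genes with 50 CPM began at r of 0.186, 0.315, 0.171, 0.117 and 0.347. Counting noise holds r low for genes with few UMIs, and 3 members had 50 CPM at 8 and at 24 h. These counts are therefore not ranked across libraries either. Saa1 and Saa2 were correlated in every library, at 0.41, 0.50, 0.49, 0.89 and 0.51, and Orm1 and Hp at 0.37, 0.51, 0.25, 0.50 and 0.48. Thinning cells to 1000 nuclear-encoded UMIs moved the 16 h median to 0.154.

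**Figure D4:**
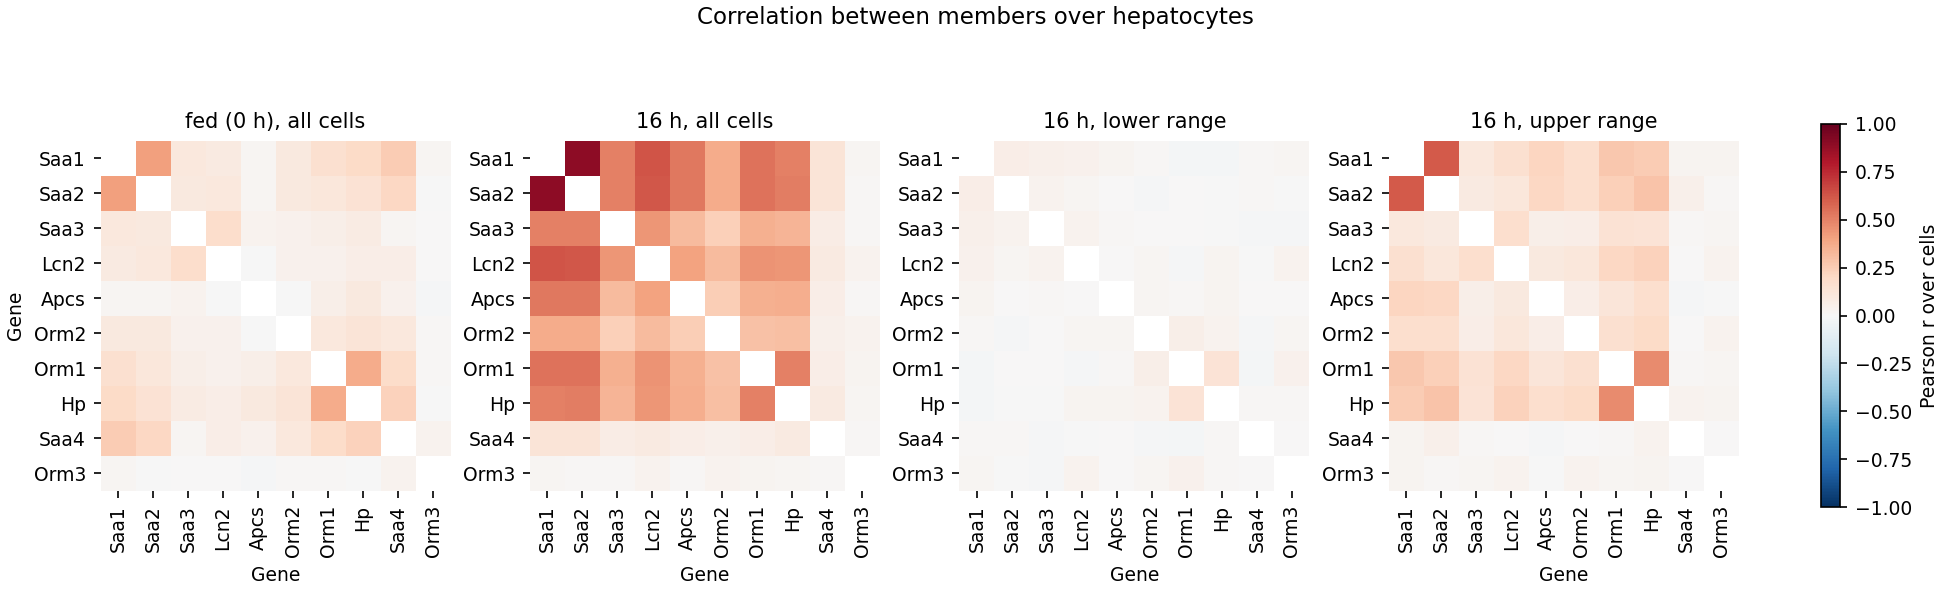
Pearson's r between the 10 genes over hepatocytes (colour from -1 to 1), for the fed library, all 16 h cells, and the 16 h cells of the lower and of the upper range. The median over 15 pairs outside the Saa1 and Saa2 sum is 0.352 in all 16 h cells, 0.017 in the lower and 0.147 in the upper range. Cutting the cells on Saa1 and Saa2 by itself lowers r within a range.

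Within the ranges the correlation was weaker. The cells were cut on Saa1 and Saa2, with which these genes varied, and such a cut by itself lowers r within a range. In the 3801 cells of the lower range Saa3, Lcn2 and Orm2 also held only 207, 232 and 352 UMIs. The lower values are therefore not read as a loss of co-expression. Over the 15 pairs of Saa3, Lcn2, Orm1, Orm2, Hp and Apcs, the median r was 0.352 over all 16 h cells, 0.017 in the lower range and 0.147 in the upper range. Orm1 and Hp kept most of theirs in the upper range (0.47 against 0.50 over all cells) and had 0.14 in the lower range. Saa4 stood outside the group, and neither Saa4 nor Orm3 had an r above 0.14 to any other member at 16 h. Orm3 held 191 UMIs there, in 185 of 9079 cells, too few to place it inside or outside the group. The genes outside the 10 most correlated with Saa2 over the 9079 cells at 16 h were Serpina1e (0.67), an alpha-1-antitrypsin paralogue, Lrg1 (0.64), Fgl1 (0.59), Mt2 (0.56), Mt1 (0.55), Fga (0.48), Itih4 (0.48) and Fgg (0.45). Those most correlated with Orm1 were Hpx, which encodes the haem carrier hemopexin (0.50), Serpina1e (0.44), Fgl1 (0.43), Lrg1 (0.42) and Itih4 (0.40). The mitochondrial share had r of -0.52 with Saa1 and -0.24 with Orm1 over the same cells, and its part in these correlations was not tested.

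The liver lobule runs from portal hepatocytes, which express Cyp2f2, to central ones, which express Cyp2e1. Cells with at least 5 UMIs of both genes together were ranked by the ratio of the 2 genes and cut into 5 equal bins, a range rather than a position measured in tissue. Most landmark genes that had no part in the ranking separated the ends at 0, 4, 8 and 16 h, although Ass1 and Cps1 did not reach 2-fold in any of them, nor Pck1 at 4 and 8 h. At 16 h Oat, a central gene, stood at 1130 CPM at the Cyp2e1 end and 32.1 CPM at the Cyp2f2 end, and Hal, a portal gene, at 86.1 and 805 CPM. At 24 h the separation was weak for most portal genes (Hal 739 and 924 CPM), although Aldh1b1 stood at 36.3 and 85.4 CPM. Of the central genes, Oat still separated the ends there (97.2 and 11.1 CPM) and Glul did not (48.9 and 52.8 CPM). Alb, which makes up much of the nuclear-encoded total, was also higher at the Cyp2f2 end, at 37108 and 101127 CPM at 16 h, and its part in the slopes of other genes was not tested.

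Saa1 and Saa2 were higher at the Cyp2f2 end in the fed and 4 h libraries and higher at the Cyp2e1 end at 16 h. Saa1 stood at 243 CPM at the Cyp2e1 end and 434 CPM at the Cyp2f2 end in the fed library, and at 613 and 1314 CPM at 4 h. At 16 h it stood at 6855 and 4097 CPM, and at 24 h at 27.9 and 14.7 CPM. The 24 h values rest on 140 and 77 Saa1 UMIs and 87 and 28 Saa2 UMIs, and the top 1% of cells held 50.8% of all Saa1 and 84.0% of all Saa2 UMIs there, so that a handful of cells can set them. The log2 ratio of the Cyp2f2 to the Cyp2e1 end was, in time order, 0.83 (0.74 to 0.93), 1.10 (1.05 to 1.15), -0.11 (-0.39 to 0.18), -0.74 (-0.77 to -0.72) and -0.93 (-1.35 to -0.52). Saa2 went the same way, at 0.83, 0.9998, -0.60, -0.77 and -1.70. The difference between libraries was not tested. Over 7 other settings, the Saa2 ratio ranged from 0.41 to 1.31 fed, from 0.36 to 1.17 at 4 h, from -0.67 to 0.78 at 8 h, from -1.66 to -0.099 at 16 h and from -1.78 to -0.92 at 24 h. At 16 h the slope of Saa1 also depended on which cells were ranked, since it was -0.092 for Saa1 with at least 20 UMIs of the axis genes and -1.61 with landmark genes as the axis, and at 24 h it was 0.13 for Saa1 with 2 to 15% mitochondrial UMIs.

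Lcn2 followed Saa1 at 4 h, from 19.7 to 56.5 CPM toward the Cyp2f2 end, and was nearly flat at 16 h (313 and 275 CPM). Hp and Orm1 were higher at the Cyp2f2 end at 4 h (log2 ratios 0.74 and 0.64) and differed by less than 0.2 between the ends at 16 h. Apcs had ratios of 0.019 at 4 h and -0.45 at 16 h. These slopes depended on the cells and the axis as well. With 2 to 15% mitochondrial UMIs, Orm1 at 4 h had 0.083 and at 16 h 0.38, Hp at 16 h 0.21 and Lcn2 at 16 h 0.18. With landmark genes as the axis, the 16 h ratios were -0.32 for Orm1, -0.47 for Hp, -0.82 for Lcn2 and -1.33 for Apcs, and with at least 20 UMIs of the axis genes that of Apcs was 0.10. In count, 2 of 7 members with 50 CPM (Saa1 and Lcn2) differed 2-fold between the ends at 4 h, beside 5.10% of all genes. Lcn2 reached 50 CPM only at the end where it was high, and the count was 1 with landmark genes or with 3 equal parts and 0 with 2 to 15% mitochondrial UMIs. In the fed, 8, 16 and 24 h libraries 0 of 7, 3, 9 and 3 did, beside 3.34%, 3.40%, 5.35% and 1.98%, although 5 did at 16 h with landmark genes as the axis.

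At 16 h the share of upper-range cells varied along the axis more than their Saa1 level did. That share was 70.4% in the bin at the Cyp2e1 end (68.0% to 72.6%), then 59.2%, 51.6% and 51.6%, and 46.8% at the Cyp2f2 end (44.3% to 49.3%). Within the upper range, Saa1 stood at 9083 CPM at the Cyp2e1 end and 7758 CPM at the Cyp2f2 end. Orm1 went the other way within the upper range, from 1746 to 2382 CPM, as did Lcn2 (415 to 521 CPM), Saa3 (358 to 439 CPM) and Hp (2879 to 3417 CPM).

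**Figure D5:**
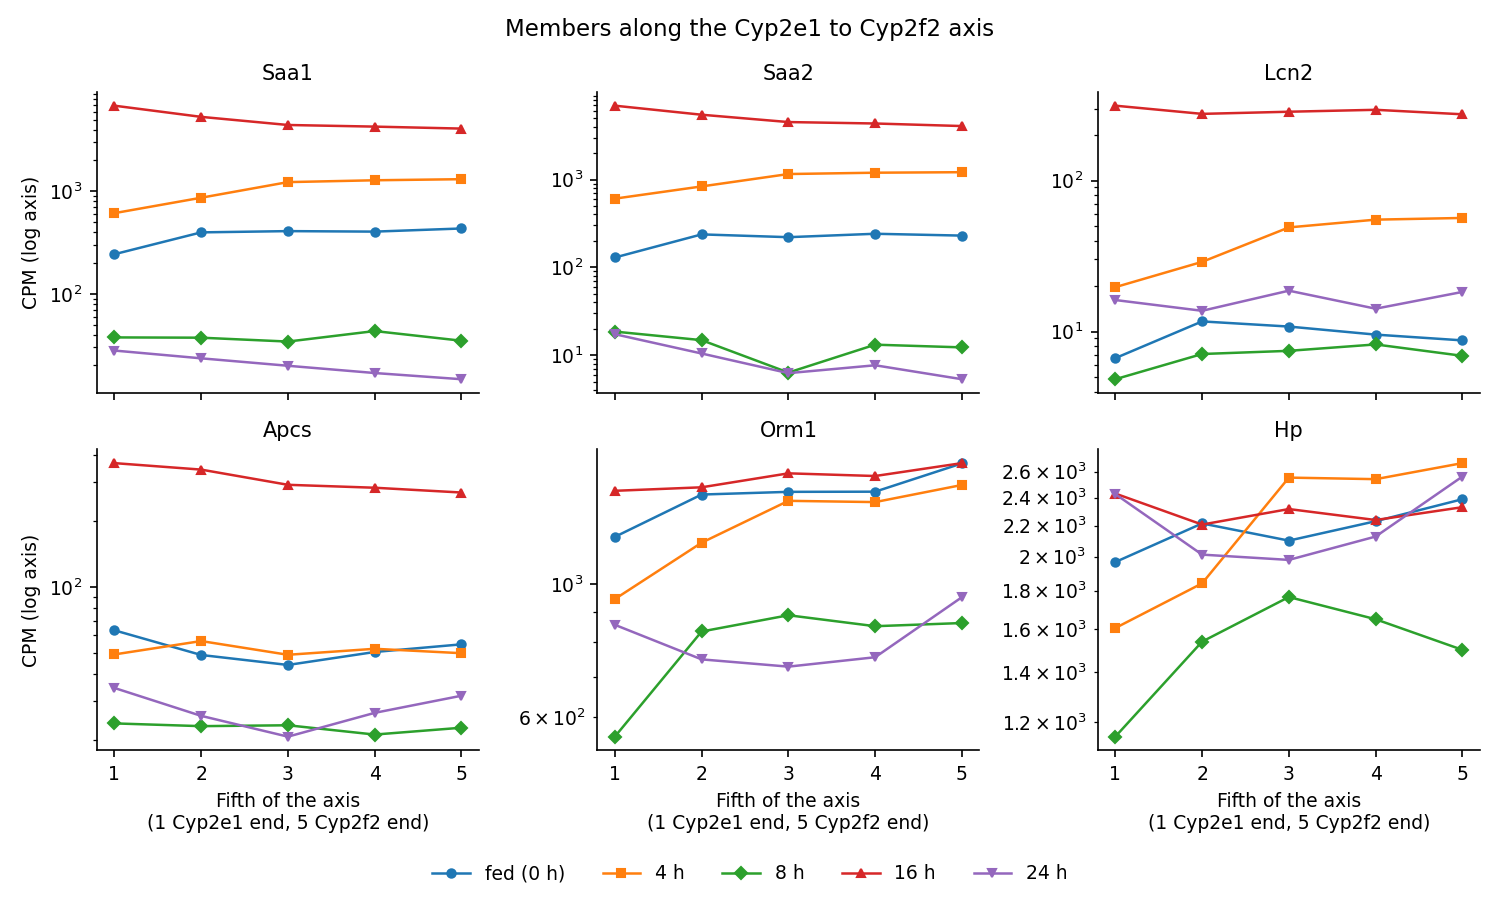
Level of 6 genes (CPM, log axis with its own scale in each panel) by bin of the cells ranked from the Cyp2e1 end (1) to the Cyp2f2 end (5), 1 line per library. Saa1 climbs toward the Cyp2f2 end at 4 h (613 to 1314 CPM) and declines at 16 h (6855 to 4097 CPM).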

How the data were processed

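Hepatocytes of 5 libraries were analysed. The authors deposited a matrix of whole-number UMI counts, genes by barcodes, made with Cell Ranger 6.0.1 for mm10, per the submitters' processing notes. The barcode table named each barcode's library. Members and gene lists were chosen with earlier results of these data known.

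Of the barcodes, those with at least 1000 UMIs, 500 genes and 2 to 30% mitochondrial UMIs were kept when each list of markers of another cell type took under 1% of nuclear-encoded UMIs (10% for erythroid genes). No doublet caller was run, so doublets remain. Counts were summed per library and divided by nuclear-encoded UMIs (CPM). Intervals are exact Poisson (CPM), Clopper-Pearson (shares) and conditional binomial (ratios), at 95%, and cover counting error only. Cells were thinned to 1000 nuclear-encoded UMIs without replacement (seed 1). The share of UMIs in the top 1% of cells replaced the planned top 10%. The text names all 10 members, the 4 genes of each wider list with the largest absolute log2 ratio to fed at each time (50 CPM in either library), and the 8 and 5 genes most correlated with Saa2 and Orm1 at 16 h. Examples from the wider lists beyond that rule were chosen after their values were seen.

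The functions were tested on simulated data. Alternatives covered thresholds, scaling (TMM and median-of-ratios factors from edgeR 4.0.16 in R 4.3.3), cell filters, averaging, free RNA, near-identical copies, axis and depth. The free RNA subtracted was the profile of barcodes under 1% mitochondrial UMIs. Markers set its share at 16.4% fed and 8.68% at 16 h. At 4, 8 and 24 h no share could be set, and 10% was put in its place. The rest ran in biopython 1.88, matplotlib 3.10.9, pandas 2.3.3, scipy 1.17.1 and numpy 2.4.6 under python 3.11.15. Gene positions are those of GENCODE M21 (GRCm38), which held 32158 of the 32285 IDs (99.6%). The number of unused per-sample columns was 0. RefSeq promoter windows matched 8 of the 10 members.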

Additional observations from a re-analysis of the deposited data

Results flagged for a closer look

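Saa1 and Saa2 stood out because their slopes along the Cyp2e1 to Cyp2f2 axis had opposite signs in different libraries. The log2 ratio of the Cyp2f2 end to the Cyp2e1 end was 0.83 fed, 1.10 at 4 h, -0.74 at 16 h and -0.93 at 24 h for Saa1. For Saa2 it was 0.83, 0.9998, -0.77 and -1.70. The difference between libraries was not tested, as each time is 1 library. The 24 h values rest on 140 and 77 UMIs of Saa1 and 87 and 28 of Saa2, with 50.8% and 84.0% of the library's UMIs of each gene in the top 1% of cells, and Saa1 at 24 h was 0.13 with 2 to 15% mitochondrial UMIs. At 16 h the ratios were -0.092 and -0.099 with at least 20 UMIs of the axis genes.

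Signal also appeared in barcodes outside the hepatocytes compared. Barcodes under 1% mitochondrial UMIs numbered 1646, 4788, 523, 193 and 4401 in time order, and at 4 h Saa1 stood at 540 CPM and Saa2 at 892 CPM in them. In barcodes under 1% mitochondrial UMIs at 16 h, Saa1 stood at 3961 CPM (150 fed), Saa2 at 5143 CPM (111 fed), Saa3 at 237 CPM (2.28 fed) and Lcn2 at 146 CPM (3.26 fed). In endothelial-rich barcodes at 16 h, Saa1 stood at 612 CPM (58.8 fed) and Saa2 at 1186 CPM (36.7 fed). The source of this RNA was not tested.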

How the results depend on the processing

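No paired analysis was possible because each time has 1 library and the labels carry no replicate numbers. Cells whose barcode occurs in another library, and a marker limit of 0.2%, were alternatives chosen after seeing the data. Of 136 alternative counts against fed 132 stayed within 1.5 times the reported count, and of 102 against the library before 99 did. With near-identical copies summed, which leaves fewer genes to count, 1 member was higher at 4 h than fed, 2 were lower at 8 h, 2 lower at 24 h, and 2 lower at 8 h than at 4 h. At 3-fold, 1 was higher at 4 h than fed. With all UMIs in the denominator, or no lower limit on mitochondrial UMIs, 2 were lower at 8 h than at 4 h.

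For the axis ends, the number of members 2-fold apart was 1 fed with at least 20 UMIs on the axis and 2 with no lower mitochondrial limit. At 4 h it was 1 with 3 equal parts, 1 with landmark genes and 0 with 2 to 15% mitochondrial UMIs, and at 16 h it was 5 with landmark genes as the axis. The median correlation at 16 h was 0.154 after thinning, 0.366 in cells of middling UMI counts, 0.348 in the middle bin of the axis and 0.265 with 2 to 15% mitochondrial UMIs. The causes were not tested. None of the 16 called log2 ratios to fed, and neither of the 2 called axis ratios, changed sign. Ratios without a call did: 25 of 540 alternative values, for 9 of 40 ratios to fed, and 36 of 350, for 23 of 50 axis ratios, had the other sign. In size, 188 of the 540 and 122 of the 350 moved beyond counting error. Of 200 alternative shares of cells with a UMI, 126 moved beyond counting error, with other thinning depths among the alternatives. Of 88 alternative excess CV2 values, 24 did not stay within 1.5 times the reported value. Depth limits Orm3, which held 47 UMIs at 8 h, and Saa3 outside 16 h, with 136 to 271 UMIs.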
